A study of Mus musculus with 6 samples.

Results

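The response of mouse macrophages to 24 h with lipopolysaccharide (LPS, a component of the outer membrane of Gram-negative bacteria) was compared between cells labelled KO and cells labelled WT for Setd2. For each gene the response is the level at 24 h minus the level at 0 h, on the scale log2(FPKM + 1), and the measure is the response in KO minus the response in WT. FPKM is the fragment count of a gene scaled to transcript length and to the size of the library. A gene entered if it reached 1 FPKM in any of the 4 libraries, which 11383 of 17904 genes did. Each library was the only one of its group: KO with LPS for 24 h, KO at 0 h, WT with LPS for 24 h and WT at 0 h. All were bone marrow-derived macrophages of C57BL/6 mice aged 8 weeks, grown with the growth factor M-CSF for 5 days, and LPS was given at 100 ng/ml. A further library of each genotype, taken at 12 h, was read as a separate view of the same genes. The labels name the genotype as KO or WT for Setd2 and do not describe the allele, a Cre driver, or whether libraries share an animal or a culture.

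LPS binds Toll-like receptor 4 on macrophages. The receptor signals through NF-kappa B and AP-1 to cytokine and chemokine genes, and through IRF3 to interferon beta. Secreted interferon then acts back on the cells through a complex that holds STAT2 and IRF9 and switches on antiviral genes at interferon-stimulated response elements. Setd2 encodes the enzyme that places the trimethyl mark on lysine 36 of histone H3 along transcribed genes.

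The measure is also the KO minus WT difference at 24 h less the KO minus WT difference at 0 h. A response can therefore differ because the genotypes differed at 24 h, because they already differed at 0 h, or both. With single libraries there is no replicate error, no test and no p-value for any difference given here. A gene was called at a size of 1 on the log2 scale (2-fold). "Larger" below means a more positive response in KO, which includes genes that came down less in KO, and "smaller" a less positive one.

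Setd2 itself (gene ID 235626, chromosome 9, 110532500 to 110618633) stood at 5.11 FPKM at 24 h and 9.96 at 0 h in KO, against 7.51 and 7.83 in WT. Its difference of responses was -0.79, and -0.03 with the trend over transcript length removed (described below), so it was not called. A gene-level value keeps reads of an allele that has lost only some exons, and so cannot serve as a check on them; every direction here rests on the libraries as labelled KO and WT. Assuming reads of 50 nt, depth was estimated at 21750000 to 22650000 mapped reads per library. The genes at 1 FPKM or more numbered 10023 to 10786 per library, and the 10 most abundant genes took 11.9% to 25.4% of the FPKM total. All 10 macrophage markers reached 1 FPKM. They summed to 4106 and 2804 FPKM in KO at 24 and 0 h and to 13931 and 8331 in WT. Lyz2 made up 54.5 and 17.7 of the KO sums and 9015 and 5502 of the WT sums. The data held 7 of 9 listed markers of T and NK cells, 5 of 7 of mast cells and 5 of 7 of erythroid cells. None of these reached 1 FPKM in any of the 4. Of the other lists, neutrophil markers (9 of 10 at 1 FPKM) summed to 68.7 and 57.3 FPKM in KO at 24 and 0 h and to 83.0 and 91.6 in WT. The summed dendritic cell markers, carried by Ccr7, were 27.4 and 7.35 FPKM in KO and 33.1 and 5.43 in WT. The B cell, eosinophil, fibroblast and endothelial markers summed to between 0.63 and 20.1 FPKM in each of the 4, and the part of any of these cells in the results was not tested. At the minimum of 1 FPKM, the last genes in were Aoc2, Arc and Cfap74, with differences of responses of -0.51, 0.28 and 0.55, and the first left out were Hoga1, Ick and Iglon5, with -0.82, -0.17 and -0.67.

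On the deposited scale more responses were smaller in KO than larger. The response was at least 2-fold larger in KO for 466 genes (4.09% of the genes tested) and at least 2-fold smaller for 996 (8.75%). Among all genes the median difference of responses was -0.13. Both genotypes answered LPS on a broad scale: 872 genes (7.66%) were 2-fold higher and 2489 (21.9%) 2-fold lower at 24 h than at 0 h in KO, against 883 (7.76%) and 1600 (14.1%) in WT. A TMM-style scaling of the FPKM values moved the median of all genes to 0.01 and the calls to 749 larger and 701 smaller, so the balance between the directions depends on how the libraries are scaled.

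Of the 466 larger responses, 161 (1.41% of the genes tested) came from the 24 h level, 144 (1.27%) from the 0 h level and 161 (1.41%) from both. A call was assigned to a time where that time supplied over 2/3 of the difference. Of the 996 smaller responses, 216 (1.90%) came from the 24 h level, 243 (2.13%) from the 0 h level and 537 (4.72%) from both levels, with KO above WT at 0 h and below it at 24 h. The genotypes differed 2-fold at 24 h in 256 genes (2.25%) higher and 223 (1.96%) lower in KO, and at 0 h in 342 (3.0%) higher and 146 (1.28%) lower. Predicted genes, clones and small RNA genes made up 259 of the 1462 calls (12.8% either way) and are not named.

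**Figure D1:**
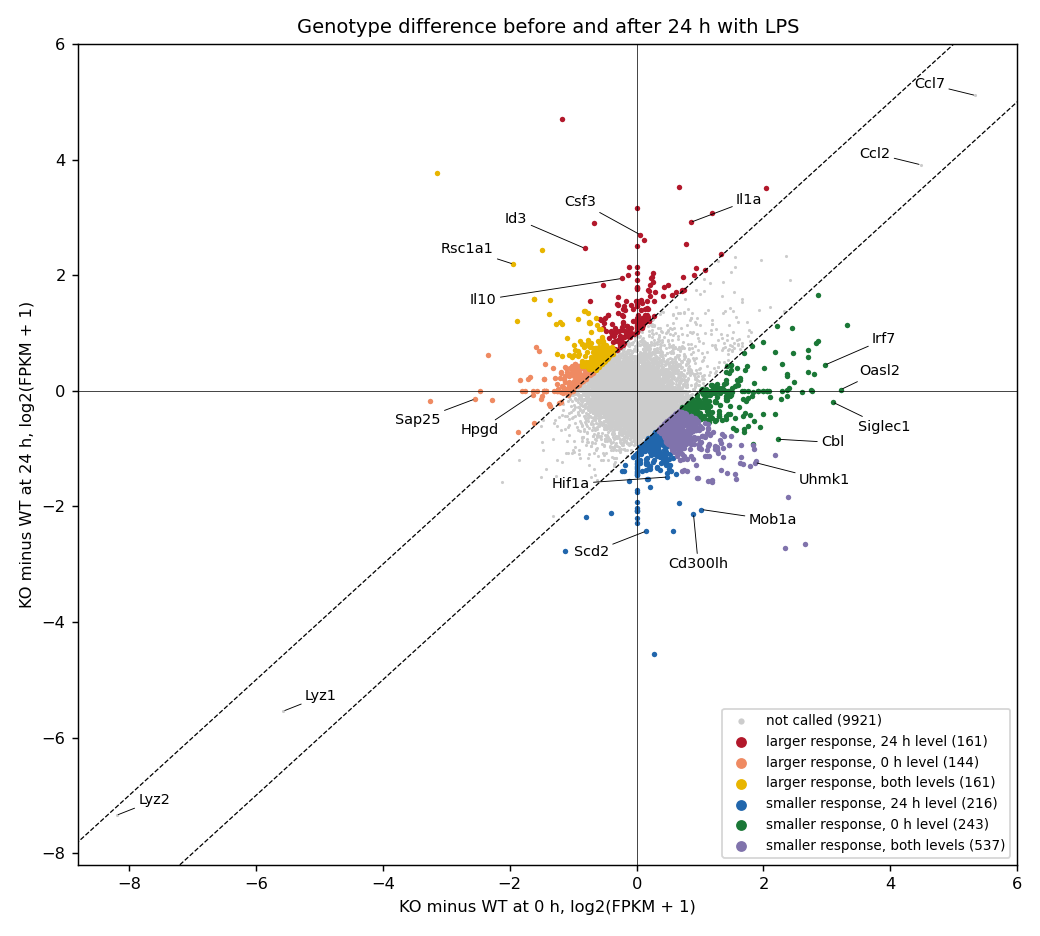
KO minus WT at 24 h (vertical axis) against KO minus WT at 0 h (horizontal axis), both in log2(FPKM + 1), for the 11383 genes tested, 1 point per gene. Dashed lines mark a 2-fold difference of responses; colours mark the class of each called gene, and Siglec1, Oasl2 and Irf7 lie far to the right near a 24 h difference of 0.

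Among the smaller responses the most frequent pattern was a gene lowered by LPS in KO and not in WT. This held for 541 of the 996 smaller responses, where "lowered" and "induced" stand for 2-fold lower and 2-fold higher at 24 h than at 0 h. A further 130 were induced in WT and not in KO, 65 were induced in both but less in KO, 32 were lowered in both but more in KO, and 13 went opposite ways. Another 215 reached 2-fold in neither genotype alone. Of the 466 larger responses, 118 were induced in KO and not in WT, 118 were lowered in WT and not in KO, 43 were induced in both, 28 were lowered in both, 13 went opposite ways and 146 reached 2-fold in neither. Among genes without a call, 814 were lowered in KO and not in WT, and 348 in WT and not in KO. Over all genes tested, 21.9% were lowered in KO and 14.1% in WT.

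Long transcripts took most of the smaller responses and short transcripts most of the larger ones. The median transcript length was 5721 nt for the genes with smaller responses due to both levels, 4415 nt for those due to the 24 h level and 3845 nt for those due to the 0 h level. It was 848, 1016 and 654 nt for the same 3 classes of larger responses, and 2720 nt for all genes tested. Across 7661 genes averaging 5 FPKM or more, the difference of responses and length had a Spearman rho of -0.68, as a description of these libraries. In transcripts no longer than 512 nt the median was 0.89, and beyond 8192 nt it was -1.08. Both times contributed, since KO minus WT had a rho with length of -0.44 at 24 h and of 0.60 at 0 h, against 0.13 at 12 h. The response itself had a rho of -0.38 in KO and 0.17 in WT.

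**Figure D2:**
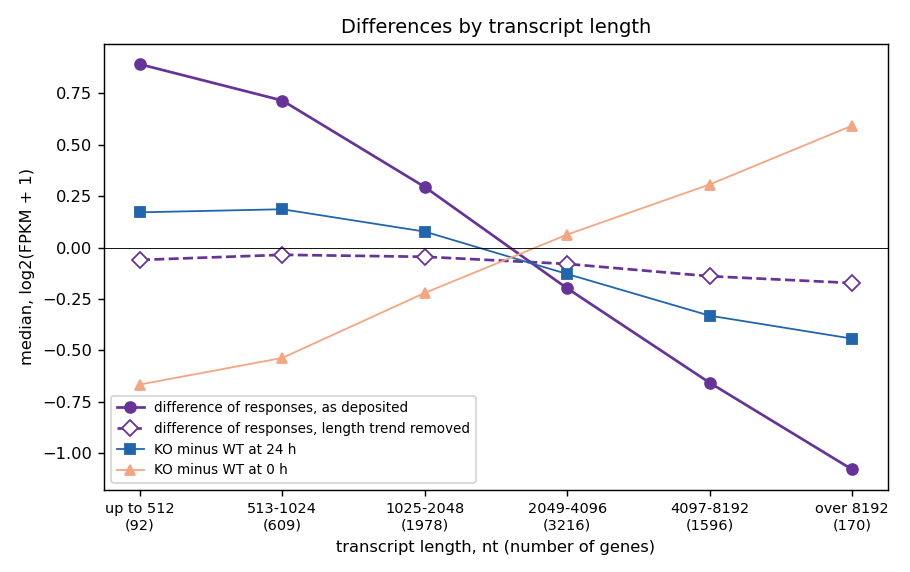
Median difference (vertical axis, log2(FPKM + 1)) by transcript length (horizontal axis, nt, with the number of genes), for the difference of responses as deposited and with the length trend removed, and for KO minus WT at 24 h and at 0 h. The difference of responses is 0.89 in the shortest bin and -1.08 in the longest as deposited, and lies between -0.17 and -0.04 with the trend removed.

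With a smooth curve over length removed from each library, 258 responses were larger (2.27%) and 512 smaller (4.50%), and 179 of the larger and 428 of the smaller were also called without this correction. The part of the trend that is biological and the part that comes from the libraries cannot be told apart with 1 library per group. The classes kept unequal shares of their genes in the same class: 149 of 243 for smaller responses due to the 0 h level, 85 of 161 for larger responses due to the 24 h level, 92 of 216 for smaller responses due to the 24 h level, and 149 of 537 for smaller responses due to both. Values with the trend removed are given below for the named genes whose call depends on it.

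Interferon-stimulated antiviral genes formed the clearest group among the smaller responses. Of 40 such genes measured, 34 had a smaller response in KO and none a larger one, and all 34 owed it to the 0 h level. The list had a median response of 1.94 in KO and 3.50 in WT, a median KO minus WT of 0.31 at 24 h and of 2.09 at 0 h, and a median difference of responses of -1.73. At the median the antiviral genes thus differed less between the genotypes at 24 h than at 0 h, where KO was higher. Some members were over 2-fold higher in KO at 24 h too, among them Oasl1 (540.0 FPKM in KO and 171 in WT), Ifit3 (616 and 279) and Isg20 (155 and 67.6). With the length trend removed, 34 were again called smaller and the median was -1.51.

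Siglec1, a sialic acid receptor of macrophages that is induced by interferon (gene ID 20612, chromosome 2, 131067801 to 131086778, in the RefSeq annotation of GRCm38.p6), had 112 FPKM at 24 h and 77.9 at 0 h in KO, against 128 and 8.25 in WT. Only the WT 0 h library was low, and the difference of responses was -3.29. Oasl2, an antiviral relative of the oligoadenylate synthetases (gene ID 23962, chromosome 5, 114896926 to 114912245), showed the same arrangement, with 219 FPKM at 24 h and 88.0 at 0 h in KO, against 215 and 8.54 in WT, a difference of -3.20. Irf7, which drives the amplifying phase of the interferon response (gene ID 54123, chromosome 7, 141263183 to 141266499), stood at 1454 FPKM at 24 h and 153 at 0 h in KO, against 1067 and 18.7 in WT. It was induced in both genotypes, by 3.24 in KO and 5.76 in WT on the log2 scale. Zbp1, a sensor of left-handed nucleic acid, had 256 FPKM at 24 h and 23.7 at 0 h in KO, against 208 and 2.56 in WT (difference -2.50), and Rtp4, a chaperone that acts as an antiviral effector, 164 FPKM at 24 h and 84.3 at 0 h in KO, against 164 and 11.6 in WT (-2.75).

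The synthetase genes Oas3 (-2.48) and Oas2 (-2.11), the RNA sensors Ddx58 (-2.42) and Ifih1 (-1.45), the viral translation inhibitors Ifit2 (-2.32), Ifit3 (-2.17) and Ifit1 (-2.11), and Rsad2 (-2.00), which encodes viperin, had smaller responses as well. Usp18, which removes the ubiquitin-like protein ISG15 from its targets, had 219 FPKM at 24 h and 26.9 at 0 h in KO, against 120.0 and 2.85 in WT. Its difference of responses was -2.00 although KO was above WT at 24 h, by 0.86. Isg15 itself was above WT in KO at both times, by 1.09 at 24 h and 2.46 at 0 h, which left a difference of -1.37. The 6 members without a call were Bst2 (0.07), Ifi35 (-0.06), Tor3a (-0.50), Isg20 (-0.55), Mx2 (-0.84) and Ifit3b (-0.94). Reads of Ifit3 and Ifit3b, and of Oas1a and Oas1g, may be shared between near copies. With the length trend removed Herc6 (-0.57) was among those that lost a call, and Isg20 (-1.09) and Ifit3b (-1.05) gained one.

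Interferon acts through a promoter element, and 3 promoters of the list are printed to show its letters. They were chosen after their values were seen, among genes whose RefSeq promoter (GRCm38.p6, 250 bases before to 50 after the transcription start, shown in the sense of the gene) held the core of that element, GAAA, any 2 bases and GAAA again, on either strand. Capitals mark the matches. Isg15 lies at chr4:156200769-156201068 on the minus strand, with 3 overlapping matches that begin 78 bases before the start. Ifit1 lies at chr19:34640639-34640938 on the plus strand, with 2 matches on the opposite strand, the first 104 bases before the start. Oas3 lies at chr5:120777610-120777909 on the minus strand, with 1 match 75 bases before the start.
Isg15: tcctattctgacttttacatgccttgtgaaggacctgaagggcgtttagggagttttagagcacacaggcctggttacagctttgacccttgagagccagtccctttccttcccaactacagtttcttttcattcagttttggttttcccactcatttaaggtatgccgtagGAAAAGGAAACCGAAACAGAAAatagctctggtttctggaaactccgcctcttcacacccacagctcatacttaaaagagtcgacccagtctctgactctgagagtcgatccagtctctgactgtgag
Ifit1: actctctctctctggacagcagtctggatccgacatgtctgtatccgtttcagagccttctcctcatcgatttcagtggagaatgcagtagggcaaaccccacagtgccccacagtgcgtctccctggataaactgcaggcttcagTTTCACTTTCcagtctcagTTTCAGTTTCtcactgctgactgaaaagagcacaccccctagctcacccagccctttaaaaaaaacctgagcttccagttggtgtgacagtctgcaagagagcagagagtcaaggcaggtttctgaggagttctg
Oas3: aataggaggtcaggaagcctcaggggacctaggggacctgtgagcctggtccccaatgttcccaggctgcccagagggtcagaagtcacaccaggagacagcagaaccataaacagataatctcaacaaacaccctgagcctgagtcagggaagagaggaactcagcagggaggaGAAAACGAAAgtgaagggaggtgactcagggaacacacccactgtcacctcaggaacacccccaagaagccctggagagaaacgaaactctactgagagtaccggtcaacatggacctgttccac

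The core was found in 15 of the 28 interferon-stimulated genes with a RefSeq promoter (53.6%), in 30 of 166 promoters (18.1%) of the genes with smaller responses due to the 0 h level, and in 25 of 86 (29.1%) of those in that class both ways. It was found in 371 of 9013 promoters of the genes tested (4.12%) and in 1079 of 27025 of all genes (3.99%). In the other 5 classes the share lay between 2.47% and 8.51%, highest in the larger responses due to the 24 h level. For genes in those classes both ways it lay between 0.00% and 12.8%, again highest there. The promoter windows of Oasl2 and Irf7 held no match, which says only that these letters are not in this window.

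Transcription factors of the interferon pathway were called with the antiviral genes, while its ligand and receptors did not reach a call. Of 17 measured ligands, receptors and transcription factors, 5 had a smaller response and none a larger one, with a median difference of -0.22 (all genes -0.13). The called members included Irf7, Stat2 (-1.71) and Irf9 (-1.23), which are also in the antiviral list, and Irf2 (-1.03), which can repress interferon targets. Stat2 had 119.7 FPKM at 24 h and 41.4 at 0 h in KO, against 109 and 10.8 in WT. Ifnb1, the gene of interferon beta, was weak in every library, at 1.85 and 0.19 FPKM in KO and 1.19 FPKM at 24 h in WT, where it was listed at 0 at 0 h. The receptor genes Ifnar1 and Ifnar2 had differences of -0.22 and 0.16, and Irf3 of 0.29.

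Interferon-induced GTPases, which attack vacuoles that hold microbes, split. Of 16 measured, 5 had a smaller response, all due to the 0 h level, and 2 a larger one due to the 24 h level, with a median difference of -0.77. Gvin1 had 28.8 FPKM at 24 h and 18.2 at 0 h in KO, against 38.3 and 3.24 in WT (-2.58, and reads may be shared with near copies). Irgm2 (-1.58), Irgm1 (-1.50), Ifi47 (-1.41) and Gbp9 (-1.12, -0.73 with the length trend removed) followed. Gbp4 went the other way, with 9.43 FPKM at 24 h and 0.70 at 0 h in KO, against 2.01 and 0.26 in WT (1.36), as did Tgtp1 (1.06). The near copy of Tgtp1, Tgtp2, had a difference of -0.73 and was not called, and reads may be shared between them.

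Smaller responses due to the 0 h level also included genes outside the interferon lists, several of them feedback or stress genes that stood higher in KO before LPS. Hmox1, which degrades heme, had 1884 FPKM at 24 h and 370.2 at 0 h in KO, against 2643 and 139 in WT, a difference of -1.89 that grew to -2.25 with the length trend removed. Acod1, which makes itaconate, was strongly induced in both, at 938 FPKM at 24 h and 19.3 at 0 h in KO, against 1321 and 8.26 in WT (-1.63). The phosphatase genes Dusp4 and Dusp6, which switch off MAP kinases, had differences of -1.81 and -1.16. Dusp4 was at 6.86 and 27.3 FPKM in KO and 7.66 and 7.89 in WT at 24 and 0 h, so that only the KO 0 h library stood apart. Nlrp3, the inflammasome sensor, stood at 24.1 and 15.3 FPKM in KO and 24.8 and 6.18 in WT (-1.23, -0.85 without the trend), the glucose transporter gene Slc2a1 at -1.24, the stress gene Trib3 at -1.54 and the scavenger receptor gene Msr1 at -1.06. Adnp, a chromatin factor, had 0.25 FPKM at 24 h and 7.67 at 0 h in KO, against 1.36 and 1.42 in WT (-2.76). Without the length trend it was at -2.50 and fell in the class due to both levels.

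Larger responses due to the 24 h level (1.41% of the genes tested) included 3 cytokine and 9 chemokine genes among 161. Of 14 measured cytokine genes, 3 had a larger response and none a smaller one (median 0.47), and all 3 owed it to the 24 h level. Il1a, which encodes interleukin 1 alpha (gene ID 16175, chromosome 2, 129299609 to 129310186), had 200.5 FPKM at 24 h and 2.09 at 0 h in KO, against 25.7 and 0.71 in WT, a difference of 2.06. Over 0, 12 and 24 h it went through 2.09, 467 and 200.5 FPKM in KO and 0.71, 160.5 and 25.7 in WT, so the gap was present at 12 h and wider at 24 h. Csf3, which drives neutrophil production, had 10.6 FPKM at 24 h and 0.04 at 0 h in KO, against 0.79 at 24 h in WT, where it was listed at 0 at 0 h (2.64). At 12 h it was at 10.2 FPKM in KO and 14.6 in WT, so KO was the higher at 24 h and not at 12 h. Il6 had 8.92 FPKM at 24 h in KO against 2.36 in WT (1.29). Il1b, the most abundant cytokine gene of the list at 24 h, had 1164 and 5.29 FPKM in KO and 1133 and 3.72 in WT at 24 and 0 h and a difference of -0.38, and Tnf stood at 0.46. Without the length trend the cytokine median was 0.06, with 3 genes larger and 1 smaller. Where the 0 h level is near 0 the size of the response depends on the pseudocount, and with 0.1 in place of 1 the difference of Il6 was 0.24.

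Chemokine genes leaned the same way. Of 11 measured CC chemokines, 5 had a larger response and none a smaller one (median 0.89), and of 9 CXC chemokines, 4 and none (median 0.88). Without the length trend, 3 were larger and 1 smaller in the CC list (median 0.19, Ccl2 the smaller at -1.31) and 3 and 1 in the CXC list (median 0.83, Cxcl10 at -1.01). All 9 calls on the deposited scale came from the 24 h level, which supplied over 2/3 of the difference. The CC list was nonetheless higher in KO before LPS. Its median KO minus WT was 1.07 at 0 h (1.60 without the length trend) and 2.03 at 24 h. In the CXC list it was 0.18 and 1.56, and over all genes tested 0.02 and -0.12. Ccl12 (4.28 FPKM in KO and 0.28 in WT) and Ccl4 (32.5 and 14.9) were over 2-fold higher in KO at 0 h, while Ccl8 and Ccl9 were not. Ccl8, a monocyte attractant, had 35.5 FPKM at 24 h and 0.19 at 0 h in KO, against 7.92 at 24 h in WT, where it was listed at 0 at 0 h (1.78). Ccl17 (1.72), Ccl12 (1.46, 0.95 without the trend), Ccl9 (1.23) and Ccl4 (1.01, 0.19 without the trend) were the other CC members. Ccl9 was at 181, 512 and 307 FPKM in KO and 136, 547 and 97.9 in WT over 0, 12 and 24 h. Cxcl1, which draws neutrophils, had 31.2 FPKM at 24 h and 0.30 at 0 h in KO, against 8.60 and 0.15 in WT (1.57), beside Cxcl11 (1.62), Cxcl5 (1.40) and Cxcl3 (1.24, 0.82 without the trend). With a pseudocount of 0.1, Ccl12 (0.02), Ccl8 (0.62) and Cxcl3 (0.66) lost their calls.

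Among brakes on inflammation, Il10 and Dusp2 had larger responses. Il10, the main anti-inflammatory cytokine of macrophages (gene ID 16153, chromosome 1, 131019845 to 131024970), had 7.69 FPKM at 24 h and 0.81 at 0 h in KO, against 1.26 and 1.13 in WT, a difference of 2.18, and at 12 h it was at 8.35 FPKM in KO and 4.59 in WT. At 24 h WT was back near its 0 h level and KO was not. The feedback list as a whole did not move to one side: of 26 measured members, 2 were larger (Il10 and Dusp2, 1.29) and 2 smaller (Dusp4 and Dusp6), with a median of -0.09 that became 0.10 under TMM-style scaling. Over all genes tested, 4.09% were larger and 8.75% smaller.

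**Figure D3:**
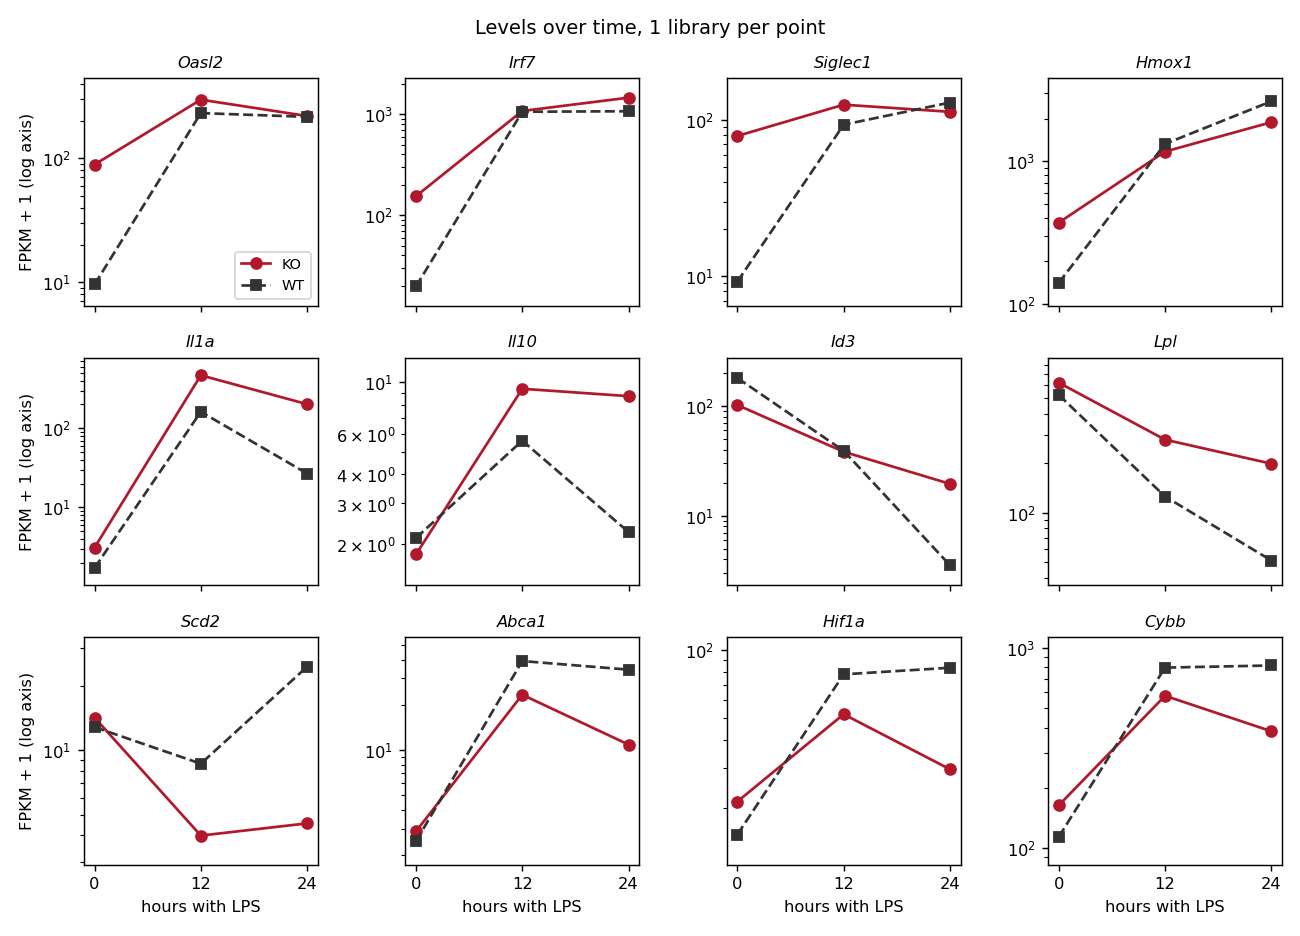
FPKM + 1 (vertical log axes, 1 panel per gene) at 0, 12 and 24 h with LPS (horizontal axes) for KO (circles) and WT (squares), 1 library per point. Oasl2, Irf7, Siglec1 and Hmox1 start apart and end close together, while Il1a, Il10, Id3 and Lpl end higher in KO and Scd2, Abca1, Hif1a and Cybb end lower in KO.

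Other genes of this class came from different pathways. Id3, an inhibitor of basic helix-loop-helix transcription factors (gene ID 15903, chromosome 4, 136143822 to 136145392), had 18.5 FPKM at 24 h and 101 at 0 h in KO, against 2.52 and 179 in WT. It was lower at 24 h than at 0 h in both genotypes, but less so in KO, which gave a difference of 3.29. Its relative Id1 had 17.6 and 39.6 FPKM in KO and 2.20 and 22.8 in WT at 24 and 0 h (1.77), and Inhba, an activin subunit, 36.2 and 1.40 FPKM in KO and 7.55 and 0.25 in WT (1.18, 0.96 without the trend and 0.15 with a pseudocount of 0.1). Upp1, a uridine phosphorylase, was induced in both and had 56.9 FPKM at 24 h and 0.41 at 0 h in KO, against 8.47 and 0.30 in WT (2.49). Lpl, the lipoprotein lipase, was at 198 FPKM at 24 h and 622 at 0 h in KO, against 49.9 and 524 in WT (1.72), with Hilpda (1.63), Fabp3 (1.41) and Lipg (1.04) as the other larger responses among 20 droplet, lipase and carrier genes. Fabp3 (0.67) and Hilpda (0.95) lost their calls without the length trend, and Lipg turned to -0.29 with a pseudocount of 0.1. The collagenase gene Mmp13 had 118 and 10.5 FPKM in KO and 22.0 and 3.59 in WT at 24 and 0 h (1.05, 0.90 with a pseudocount of 0.1). The histone genes Hist2h2aa1 (2.26) and Hist2h3c2 (1.90) were called here, but reads of histone genes may be split among near copies, and Hist2h2aa2 went the other way (-1.73).

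AP-1, the factor of Fos and Jun proteins, binds the letters TGANTCA, and 2 promoters of this class with a match are printed, again chosen after their values were seen. Il1a lies at chr2:129309923-129310222 on the minus strand, with the match 12 bases before the start, and Upp1 at chr11:9117758-9118057 on the plus strand, with the match 45 bases before the first of 2 listed starts. Capitals mark the match.
Il1a: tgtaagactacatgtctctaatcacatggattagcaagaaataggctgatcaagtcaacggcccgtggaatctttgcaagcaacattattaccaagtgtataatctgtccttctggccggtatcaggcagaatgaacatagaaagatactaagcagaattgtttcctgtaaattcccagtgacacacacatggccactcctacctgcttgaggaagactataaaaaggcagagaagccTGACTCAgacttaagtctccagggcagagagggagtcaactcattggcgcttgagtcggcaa
Upp1: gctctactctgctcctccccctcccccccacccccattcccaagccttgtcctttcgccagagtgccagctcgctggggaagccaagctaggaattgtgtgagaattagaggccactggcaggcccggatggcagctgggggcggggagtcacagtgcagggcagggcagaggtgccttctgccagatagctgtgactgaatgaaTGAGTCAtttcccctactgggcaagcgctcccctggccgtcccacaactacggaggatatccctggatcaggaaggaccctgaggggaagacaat

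The AP-1 letters were found on either strand in 18 of 94 promoters of this class (19.1%), in 566 of 9013 promoters of the genes tested (6.28%) and in 2425 of 27025 of all genes (8.97%). The share was 11.4% for smaller responses due to the 0 h level and between 2.47% and 6.65% in the other 4 classes. For genes in the same class both ways it was 21.3% (10 of 47) here and 16.3% (14 of 86) for smaller responses due to the 0 h level. In the other 4 classes it then lay between 6.25% and 9.09%. The AP-1 letters were also in 7 of 28 promoters of the antiviral list, so they were not particular to this class. The kappa B core GGAANTTCC was in 4 of the 94 (4.26%) against 1.42% of the genes tested. It was in 8 of 166 (4.82%) for smaller responses due to the 0 h level, so it did not set this class apart. Of the genes in this class both ways, 1 of 47 (2.13%) held it. Of the genes tested, 36 held both the interferon core and the AP-1 letters, and 14 held both the kappa B core and the AP-1 letters.

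Smaller responses due to the 24 h level (1.90% of the genes tested) took in genes of lipid synthesis and of the hypoxia response. Of 24 measured genes of cholesterol synthesis and uptake, 5 had a smaller response, 4 of them due to the 24 h level, and none a larger one, with a median of -0.74 (-0.51 and 3 calls without the length trend). Of 16 genes of fatty acid synthesis and desaturation, 4 had a smaller response, 3 of them due to the 24 h level, and none a larger one, with a median of -0.78 (-0.49 and 3 calls). Among all genes tested 8.75% were smaller, with a median of -0.13, and 4.50% without the length trend, with a median of -0.09. Scd2, a stearoyl-CoA desaturase (gene ID 20250, chromosome 19, 44293676 to 44306864), had 3.55 FPKM at 24 h and 13.2 at 0 h in KO, against 23.5 and 11.8 in WT, a difference of -2.58. It was lower after LPS in KO and higher in WT. Fasn, the fatty acid synthase, owed its smaller response (-2.11) to both levels. It was at 1.22 and 24.5 FPKM in KO and 4.73 and 14.2 in WT at 24 and 0 h. Fads2, another desaturase, was at 0.34 and 15.4 FPKM in KO and 2.17 and 14.8 in WT at these times (-1.29). Acaca, acetyl-CoA carboxylase, was at -1.43. The sterol genes called included Stard4, a sterol carrier (-1.71), Hsd17b7 (-1.49) and Srebf2 (-1.17), whose product drives the sterol pathway. Srebf2 (-0.63) and Acaca (-0.75) lost their calls without the length trend. The sterol element, searched as ATCAC, any base and CCAC on both strands, was in 1 of 146 promoters of this class (0.685%) and in 15 of 9013 of the genes tested (0.166%). It was in 0 of 17 promoters of the cholesterol list and in 0 of 54 of those in this class both ways. The share of the class thus rests on 1 gene.

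Abca1, which exports cholesterol from macrophages, was induced in both genotypes but less in KO, at 9.88 FPKM at 24 h and 1.87 at 0 h in KO, against 33.4 and 1.47 in WT (-1.88, and -1.14 without the trend). Of 27 genes of glycolysis and the hypoxia response, 6 had a smaller response and none a larger one (median -0.20, and 5 calls without the trend). Among all genes tested 8.75% were smaller and the median was -0.13. Hif1a, the oxygen-regulated transcription factor (gene ID 15251, chromosome 12, 73901324 to 73947554), had 28.6 FPKM at 24 h and 20.3 at 0 h in KO, against 82.3 and 14.2 in WT, so it was induced by 2.45 in WT and was 0.47 higher in KO on the log2 scale (-1.98). Vegfa (-1.50) and Egln3 (-1.32), also on this list, belonged to the same class. Hilpda, a hypoxia-inducible gene counted above with the droplet genes, went the other way (1.63). Pfkfb3, which makes an activator of glycolysis, had 86.6 FPKM at 24 h and 14.1 at 0 h in KO, against 172 and 4.89 in WT (-2.34) and owed it to both levels, and Slc2a1 and Ero1l (-1.06, -0.61 without the trend) to the 0 h level.

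Cybb, which encodes the catalytic part of the oxidase that makes superoxide in phagocytes, had 383 FPKM at 24 h and 163 at 0 h in KO, against 816 and 113 in WT (-1.61, -1.10 without the trend), and was the 1 call among 13 phagocyte oxidase and microbicidal genes. Its partner Cyba had a difference of 0.85, not called. Of the 10 macrophage markers, 3 had smaller responses, among them the complement receptor gene Itgam (-1.70) and the receptor for dying cells Mertk (-1.85). Itgam was at 163 and 168 FPKM in KO and 387 and 122 in WT at 24 and 0 h. In bulk samples fewer cells of a type and less RNA per cell cannot be told apart. The genes Mob1a, a Hippo pathway component (9.27 and 58.8 FPKM in KO and 41.6 and 28.5 in WT, -3.08), and Cd300lh, a receptor-like gene (4.71 and 56.9 FPKM in KO and 24.0 and 30.1 in WT, -3.03), had the largest differences of the class. Without the length trend Cd300lh (-3.71) fell in the class due to both levels.

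Genes of the amino acid and unfolded protein stress responses leaned to smaller responses through either level. Of 23 measured, 7 had a smaller response and none a larger one, and 9 and none without the length trend, where the median went to -0.83, against -0.59 as deposited. Among all genes tested 8.75% were smaller and 4.09% larger as deposited, with a median of -0.13. Without the length trend these were 4.50%, 2.27% and -0.09. Asns, asparagine synthetase, had 12.3 FPKM at 24 h and 42.3 at 0 h in KO, against 28.9 and 29.4 in WT (-1.68), and Phgdh, the first enzyme of serine synthesis, 5.81 FPKM at 24 h and 60.4 at 0 h in KO, against 15.0 and 50.2 in WT (-1.50). Mthfd2, an enzyme of mitochondrial folate metabolism, was at -1.11, Sesn2 at -1.56, the amino acid transporter gene Slc7a5 at -1.70, Trib3 at -1.54 and Chac1, which degrades glutathione, at -1.81.

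The class with smaller responses due to both levels was the most numerous. Uhmk1, a kinase gene with a transcript of 7864 nt, had 1.49 FPKM at 24 h and 15.0 at 0 h in KO, against 4.89 and 3.38 in WT (-3.11). Mgat5, a glycosyltransferase gene, had 1.22 and 12.7 FPKM in KO and 4.44 and 2.98 in WT (-3.08), Lyst, which regulates lysosome-related organelles, 1.14 and 12.2 FPKM in KO and 4.79 and 3.49 in WT (-2.99), and Ern1, a sensor of unfolded proteins, 1.40 and 8.48 FPKM in KO and 5.97 and 3.16 in WT (-2.73), each at 24 and 0 h. In these genes the KO 0 h library was the highest and the KO 24 h library the lowest of the 4. At 12 h Uhmk1 was at 12.0 FPKM in KO and 11.2 in WT, and Lyst at 9.06 and 8.66. Polr2a, the large subunit of RNA polymerase II, was at 10.7 and 60.5 FPKM in KO and 20.5 and 29.5 in WT (-1.89, -1.19 without the trend). Of 22 genes of efferocytosis and complement, 4 had smaller responses, all due to both levels: Mertk, Itgav (-1.52, -0.79 without the trend), Lrp1 (-1.45, -0.23) and Itgb3 (-1.28, -0.76). Mertk (-1.44) alone of these kept its call without the trend. Among 11 enzymes that write or erase methylation at lysine 36 of histone H3, Setd2 included, Ash1l (-1.36), Kdm2a (-1.13) and Nsd1 (-1.04) were called smaller, and none was without the trend (-0.55, -0.41 and -0.01).

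Larger responses due to the 0 h level were few without the length trend, 62 in place of 144. Hpgd, which breaks down prostaglandins, was nearly shut off in both genotypes, with 0.03 FPKM at 24 h and 8.99 at 0 h in KO, against 0.08 and 30.1 in WT, so that the lower start in KO gave a difference of 1.57. Sap25, which encodes a protein of a histone deacetylase complex, had 7.82 FPKM at 24 h and 1.66 at 0 h in KO, against 8.74 and 14.6 in WT (2.41). Cbr2, a carbonyl reductase gene, was at 5.51 and 2.55 FPKM in KO and 3.72 and 8.68 in WT at 24 and 0 h (1.91). Short housekeeping transcripts fell in this class and the next: of 34 nuclear genes of oxidative phosphorylation 5 were larger (median 0.71), and of 32 ribosomal protein genes 4 (median 0.66), with none smaller. Without the length trend both lists had no call, and medians of -0.01 and 0.02.

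Larger responses due to both levels held Malat1, a long nuclear noncoding RNA, as an exception to the trend. Its transcript has 6983 nt, and it was at 226 FPKM at 24 h and 34.6 at 0 h in KO, against 101 and 84.4 in WT, a difference of 2.42, or 3.17 with the length trend removed. Trem2, a lipid receptor of macrophages, was at 319.9 FPKM at 24 h and 677 at 0 h in KO, against 151 and 997 in WT (1.63), lower after LPS in both genotypes and less so in KO. Ctu2, which modifies transfer RNA, had 23.0 and 11.6 FPKM in KO and 9.62 and 19.9 in WT at 24 and 0 h (1.91). Rsc1a1 (4.14), Atp6v0c-ps2 (2.94), Bcl2a1d (2.17) and Bcl2a1a (2.01) overlap another gene or have near copies, so how reads were split is uncertain. Without the length trend Atp6v0c-ps2 (1.99) and Bcl2a1d (1.48) fell in the class due to the 24 h level.

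Wide gaps between the genotypes at both times were also seen in genes whose response was not called. In 47 genes KO was at least 2-fold higher at both 0 and 24 h, and in 39 of these the response was not called; in 16 genes KO was at least 2-fold lower at both times, and in 15 the response was not called, while 12.8% of all genes tested were called either way. Ccl7, a monocyte attractant, had 832 FPKM at 24 h and 82.5 at 0 h in KO, against 23.1 and 1.06 in WT, a difference of responses of -0.23. Ccl2 had 1638 and 282 FPKM in KO and 108 and 11.7 in WT at 24 and 0 h (-0.57), and its response was called smaller without the length trend (-1.31), as were those of Cxcl10 (-1.01), Ly6a (-1.23) and Pdpn (-1.14). Also not called were the interleukin 1 antagonist gene Il1rn (0.30), Cxcl2 (0.04) and Socs1 (-0.15). Lyz2, the macrophage lysozyme gene and the site of a Cre driver often used in myeloid cells (the labels name no driver), was at 54.5 FPKM at 24 h and 17.7 at 0 h in KO, against 9015 and 5502 in WT (0.85), and Lyz1, a near copy, at 0.03. In contrast, 28 genes were 2-fold higher in KO at 0 h and 2-fold lower at 24 h, and 12 the reverse.

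The 12 h libraries, which the classes did not use, lay between these ends. The median KO minus WT at 12 h was 0.31 for the larger and -0.24 for the smaller responses due to the 24 h level, against -0.06 for all genes tested. For the 24 h class with larger responses, 31 of 161 genes were already 2-fold higher in KO at 12 h and 3 were lower; over all genes 128 (1.12%) were higher and 72 (0.633%) lower. For the smaller responses due to the 24 h level the counts were 7 higher and 10 lower of 216. For the smaller responses due to the 0 h level the median was 0.19, with 9 of 243 genes 2-fold higher and 6 lower, against a median of 1.24 at 0 h. For the larger responses due to the 0 h level it was -0.21, and for the classes due to both levels -0.05 (larger) and -0.04 (smaller), close to all genes.

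**Figure D4:**
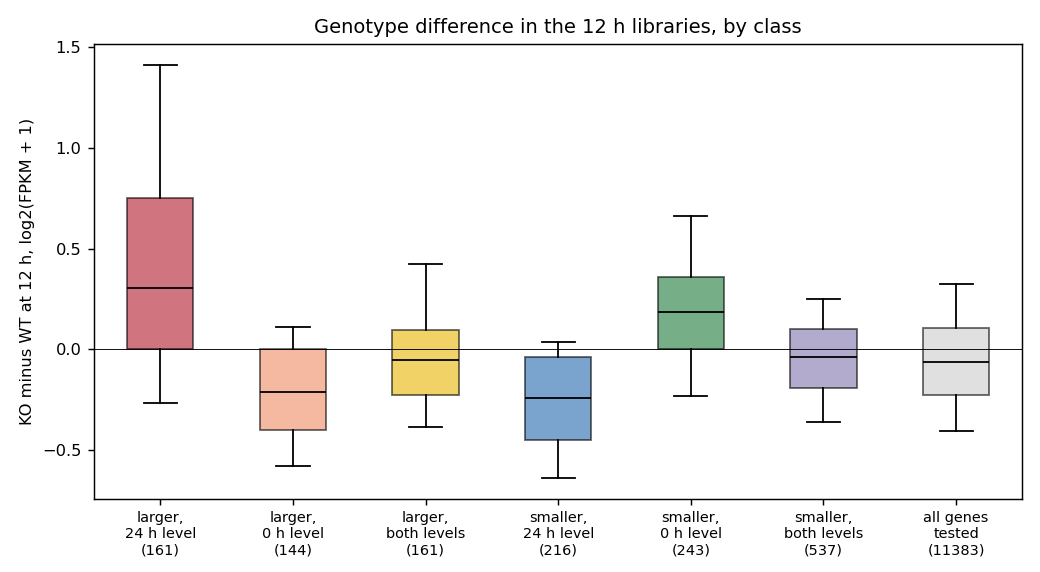
KO minus WT in the 12 h libraries (vertical axis, log2(FPKM + 1)) for the 6 classes and for all genes tested (horizontal axis, with the number of genes). Boxes span the quartiles with the median, whiskers the 10th to 90th percentile of genes; the medians are 0.31 and -0.24 for the larger and smaller responses due to the 24 h level, against -0.06 for all genes.

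The remaining lists are given beside the shares over all genes tested, 4.09% larger and 8.75% smaller. In lists this small a few calls can exceed those shares, as with 3 larger of 12 in the ID protein and TGF-beta list. Of 24 Toll-like receptor and LPS signalling genes, 3 were smaller: Tlr9 (-1.89), Rel (-1.50) and Tlr7 (-1.05), of which Tlr9 alone kept its call without the length trend (Rel -0.95, Tlr7 -0.86). Tlr4, the LPS receptor, was at -0.86. Among 18 immediate early and AP-1 genes, Fosl2 (-1.58, -0.95 without the trend) was the 1 call, and among 9 nitric oxide, arginine and itaconate genes Acod1 was. Alternative activation genes (14) had Ccl17 and Trem2 larger and Mrc1 (-1.25, -0.76 without the trend) smaller. Of 19 antigen presentation genes, Nlrc5 (-1.20, -0.54 without the trend) was smaller, and of 15 chemoattractant receptors Cmklr1 (-1.39). The 17 LXR target and efflux genes had Lpl larger and Abca1 and Npc1 (-1.23, -0.66 without the trend) smaller. NRF2 targets (19) had 3 smaller, Hmox1, Slc7a11 (-1.27, -0.56 without the trend) and Gclc (-1.09, -0.84 without the trend). Iron genes (14) had Hamp (1.27, 0.94 without the trend) larger and Hmox1 smaller, and inflammasome and cell death genes (19) had Bcl2a1b (1.21, 0.45 without the trend) larger and Nlrp3 smaller. Matrix proteases and plasminogen activators (16) had Mmp13, Timp1 (1.04, 0.39 without the trend) and F10 (1.01, 0.92 without the trend) larger and F13a1 (-1.39) smaller. The 12 genes of ID proteins and the TGF-beta pathway had Id3, Id1 and Inhba larger and Tgfbr2 (-1.25, -0.66 without the trend) smaller.

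The replication and mitosis genes were among the most strongly lowered by LPS, with a median response of -4.12 in KO and -3.80 in WT over 34 genes, and their difference of responses had a median of 0.01, with Tyms (1.17) the 1 call. The 24 lysosomal genes had no call (median 0.24). Of 22 genes of fatty acid oxidation Etfb (1.48, 0.75 without the trend) was larger, and of 15 prostaglandin and leukotriene genes Hpgd was. The 11 histone genes had 4 larger and 1 smaller. Of 12 reference genes Polr2a was called, with a median of -0.02 over the list.

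**Figure D5:**
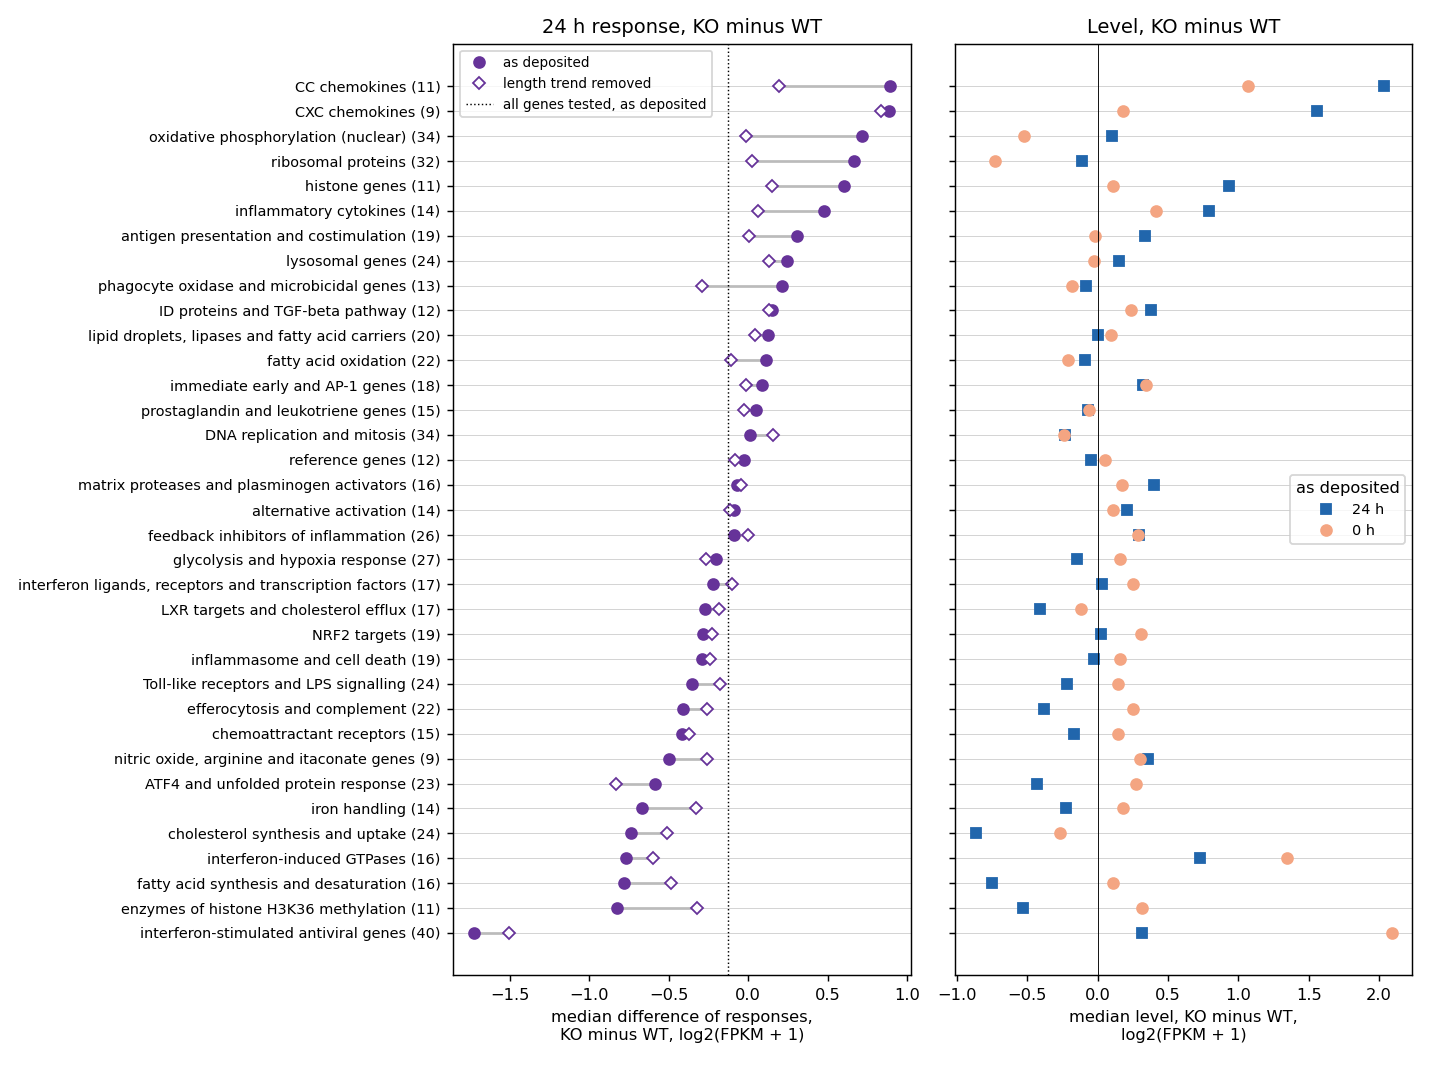
Gene lists (vertical axis, with the number of genes measured) by median difference of responses, as deposited and with the length trend removed (left panel, log2(FPKM + 1), dotted line at the median of all genes), and by median KO minus WT at 24 h and at 0 h (right panel). Interferon-stimulated antiviral genes lie lowest on the left, at -1.73 and -1.51, and on the right at 0.31 at 24 h and 2.09 at 0 h.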

How the data were processed

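RNA of 6 libraries, 1 per group, was sequenced on the BGISEQ-500 platform after TRIzol extraction, per the labels' protocols. The deposited values are the authors' FPKM (per the file headers), rounded to 2 decimals. The submitters' processing notes name Bowtie2, RSEM and GRCm38, with no versions or settings. No count table was used here, so depth was estimated from the spacing of low FPKM values. Of 17905 rows, 1 that names no gene was left out. Cd36 and Cers5 have no number in the KO 0 h column and were not tested, and gene IDs gave back 25 symbols that a spreadsheet had turned into dates.

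Differences were taken on log2(FPKM + 1) of the authors' values with Python 3.11.15, pandas 2.3.3 and numpy 2.4.6, and called at 1. Genes reaching 5 FPKM were named by rank: the 12 highest and lowest differences of responses and the 8 largest of each class, 48 genes in all. Called members of a list and up to 4 others of it could be named too; a few genes are not reported here. The members, lists and classes were chosen with earlier results of these data known, so counts over them are descriptions.

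For the length correction, a lowess curve (span 0.3, statsmodels 0.14.6) relating each library's log2 deviation from the 6-library mean to log length was fitted to genes averaging 10 FPKM or more, centred and subtracted. Lengths came from GENCODE M21 for 11336 genes tested (99.6%) and coordinates and promoters from RefSeq GRCm38.p6. Promoters of 9013 genes tested were matched by gene ID. The scripts were tested on simulated data. Other pseudocounts, minimums, folds, scalings and class rules were tried.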

Additional observations from a re-analysis of the deposited data

Results flagged for a closer look

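In 4 named genes the 2 genotypes answered LPS in opposite directions, each by 2-fold or more. With 1 library per group the difference was not tested. Rsc1a1 had 11.9 FPKM at 24 h and 1.29 at 0 h in KO, against 1.83 and 7.83 in WT, a difference of responses of 4.14. It lies inside another gene and was at 0 and 0.59 FPKM in KO and WT at 12 h. Cbl, a ubiquitin ligase that turns off receptor signalling, had 3.18 FPKM at 24 h and 11.8 at 0 h in KO, against 6.47 and 1.75 in WT (-3.06). Spred2, an inhibitor of the Ras pathway, had 2.28 FPKM at 24 h and 11.5 at 0 h in KO, against 6.87 and 2.92 in WT (-2.93). Wdfy2, an endosomal protein gene, had 4.85 FPKM at 24 h and 17.1 at 0 h in KO, against 11.9 and 4.76 in WT (-2.79). In Cbl, Spred2 and Wdfy2 both 12 h libraries were close to each other, with KO minus WT of -0.06, -0.01 and 0.09. With the length trend removed, the differences were 3.91 for Rsc1a1, -2.24 for Cbl, -2.85 for Spred2 and -2.16 for Wdfy2. Cbl and Wdfy2 have transcripts of 11372 and 6646 nt, and without that trend Cbl came down in KO by less than 2-fold (-0.97). The part of transcript length in these differences was not tested beyond that.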

How the results depend on the processing

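No paired analysis was possible because every label carries the same replicate number, so the groups share fewer than 2 numbers. With single libraries, none was left out. All differences here are without replicate error, and depth limits the genes under a few FPKM most.

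Counts of calls depended on every setting that scales small differences. In this order (larger; larger due to the 24 h, the 0 h and both levels; smaller; smaller due to the 24 h, the 0 h and both levels) the reported counts were 466, 161, 144, 161, 996, 216, 243 and 537. A pseudocount of 5 gave 196, 60, 56, 80, 291, 51, 97 and 143. A 1.5-fold rule gave 1562, 403, 622, 537, 2701, 811, 639 and 1251, and a 3-fold rule 98, 43, 17, 38, 231, 40, 75 and 116. With a pseudocount of 0.1 the smaller responses were 1629, of which 500 were due to the 24 h level. A minimum of 5 FPKM left 102 larger responses due to the 24 h level. TMM-style (trimmed-mean) scaling gave 749 larger responses, 249 of them due to the 24 h level and 313 due to both, and, among the smaller, 138 due to the 24 h level and 355 due to both; larger responses were then 51.7% of the calls, against 31.9%. With the length trend removed there were 258 larger responses, 62 of them due to the 0 h level and 82 due to both, and 512 smaller, 125 due to the 24 h level and 193 due to both. Requiring over 3/4 of the difference from 1 time left 130 smaller responses due to the 24 h level. Classes by 2-fold calls at each time gave 83 larger due to the 0 h level and 12 due to both, and 136 smaller due to the 24 h level and 28 due to both. Median-of-ratios scaling and no minimum moved none of these counts by over 1.5 times. The cause was not tested, other than that fewer or more genes pass by construction.

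Of the 48 genes named by rank, all kept their call with both scalings and a pseudocount of 0.1. Pkd1 (-0.94) lost it with a pseudocount of 5, and Rps15a-ps4 (0.61), Nudt1 (0.86), Pet100 (0.98) and Bc1 (0.9966) with the length trend removed. Of 127 other called list members, 79 kept the call with the length trend removed, 111 under TMM-style scaling, 124 under median-of-ratios scaling, 119 with a pseudocount of 0.1 and 73 with 5. Under TMM-style scaling the lost calls named here lay between -0.82 (Xaf1) and -0.97 (Dusp6), with Oas1a, Oas1g, Oasl1, Herc6, Irf2, Gbp9, Msr1, Mthfd2, Tlr7, Gclc, Ero1l, Kdm2a and Nsd1 between them. Lipg turned from larger to -0.29 with a pseudocount of 0.1. List medians changed sign in 14 cases over the 5 settings, among them oxidative phosphorylation (0.71, and -0.01 without the length trend), phagocyte oxidase and microbicidal genes (0.21, and -0.29 without the length trend) and nitric oxide, arginine and itaconate genes (-0.50, and 0.01 with a pseudocount of 5).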

Other observations

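Vegfa, Hif1a and Cybb, all induced more in WT, had KO minus WT at 12 h of -0.31, -0.59 and -0.47, on the same side as at 24 h. Id3 and Csf3 had -0.03 and -0.48 at 12 h, against 2.47 and 2.70 at 24 h.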
